A study of Homo sapiens with 2 samples.

Results

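The peaks described here are the TET1 peaks of the zinc finger gene clusters on human chromosome 19. A peak was a member when its midpoint fell in 1 of 6 windows on the hg19 build, and 296 of the 46208 peaks in the list did. The windows are called A (11.7 to 12.6 Mb), B (19.8 to 24.3 Mb), C (36.6 to 38.3 Mb), D (44.35 to 44.95 Mb), E (52.4 to 53.95 Mb) and F (57.4 to 58.95 Mb). They held 30, 67, 43, 19, 68 and 69 peaks, and the rest of chromosome 19 held 2859.

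The study mapped TET1 by ChIP-seq with an antibody to the V5 tag, in day 7 cardiac progenitors grown from the H1 human embryonic stem cell line with a V5 tag on the endogenous TET1. The cells had received 6 µM CHIR99021, a WNT activator, until day 2 and 5 µM IWP2, a WNT inhibitor, between days 3 and 5. There was 1 ChIP library and 1 input library, both under a wild-type genotype entry in the labels. Tagged cells without the antibody, or untagged cells with it, were not analysed here, so antibody signal other than TET1 cannot be told apart. The read depth is unknown, no value has a replicate, and each interval given covers counting error only, as if nearby peaks were independent of each other.

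TET1 oxidises methylated cytosine, the first step of removing DNA methylation, and its CXXC domain binds DNA rich in unmethylated CpG. KRAB zinc finger genes form the largest family of human transcription factors and lie in tandem arrays, many of them on chromosome 19. Their proteins recruit the corepressor TRIM28 through the KRAB domain and silence transposable elements among other targets. The long exons that encode the zinc fingers are known for carrying repressive histone methylation, while the promoters of many of these genes are CpG-rich and free of it.

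The label of the windows was checked against a RefSeq gene table of GRCh38.p14. Since peaks and table are on different builds, peaks were joined to no gene, and genes were counted only by their order between a first and a last gene chosen from general knowledge for each window. Window A was represented by the run from ZNF627 to ZNF443, in which 20 of 20 protein-coding symbols were of zinc finger genes. The run from ZNF14 to ZNF254 for window B held 36 of 38, and that from ZNF565 to ZNF573 for window C held 29 of 30. For window D, 18 of 18 symbols between ZNF404 and ZNF229 were zinc finger genes. The runs for window E (ZNF613 to ZNF761) and window F (ZIM3 to ZNF132) were more mixed, with 34 of 43 and 46 of 55. Together the runs held 183 of the 261 zinc finger symbols of chromosome 19, so the windows leave out some zinc finger genes of the chromosome. The symbols include SCAN and other zinc finger genes, and the presence of a KRAB domain was not read from any file.

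The 250 bases before the start of these genes differed in CpG number between the runs. RefSeq promoters (GRCh38.p14) matched 158 of the 183 genes, and their median was 15.0 CpG, against 16.5 for 959 other protein-coding genes of chromosome 19. The run of window B had the lowest median, 8.0 (quartiles 7.0 and 10.1), followed by 12 in A and 13 in D. The runs of F, E and C had medians of 17, 17.8 and 18. A gene next to its run's median is shown from the lowest and the highest run, 5′ to 3′ on the gene's strand, with each CpG in capitals.
ZNF100: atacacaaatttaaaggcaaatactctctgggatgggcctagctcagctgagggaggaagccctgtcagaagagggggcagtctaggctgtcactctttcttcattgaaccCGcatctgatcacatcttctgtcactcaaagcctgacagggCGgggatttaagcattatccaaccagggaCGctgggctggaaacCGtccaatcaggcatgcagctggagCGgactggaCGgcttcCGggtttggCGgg
ZNF568: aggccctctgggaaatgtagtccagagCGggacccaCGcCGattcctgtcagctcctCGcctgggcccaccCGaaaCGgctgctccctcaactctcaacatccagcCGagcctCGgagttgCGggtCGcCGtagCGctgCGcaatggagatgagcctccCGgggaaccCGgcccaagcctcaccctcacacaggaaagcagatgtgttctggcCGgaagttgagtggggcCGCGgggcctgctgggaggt
ZNF100, of the run of window B, has 8 CpG and 54.4% G and C, and they lie mostly towards the start of the gene. ZNF568, of the run of window C, has 18 CpG and 65.6% G and C over most of its length. Whether a peak covers either promoter was not read.

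Peaks were sparser in each of the 6 windows than over the rest of chromosome 19 as a whole. The windows had 27.4 peaks per Mb (95% Poisson interval 24.4 to 30.7) and the rest of chromosome 19 had 64.6 (62.2 to 67.0), a ratio of 0.424 (exact interval 0.375 to 0.479). Window B, the longest and the one next to the centromere, was the sparsest with 14.9 peaks per Mb (11.5 to 18.9). Window C had 25.3 (18.3 to 34.1), D had 31.7 (19.1 to 49.5) and A had 33.3 (22.5 to 47.6). Windows E and F were densest, with 43.9 (34.1 to 55.6) and 44.5 (34.6 to 56.3). The ratio to the rest ran from 0.231 in B (0.178 to 0.294) to 0.689 in F (0.535 to 0.875), and the interval stayed below 1 in each.

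The windows were not sparse by the measure of the whole genome. Autosomes had 19.5 peaks per Mb on average, and of the 6 windows only B was below that. Without the first 5 Mb of the chromosome, where the rest is densest at 129 peaks per Mb, the ratio of windows to rest was 0.485. Without window B it was 0.563. Peaks covered 5.40% of the windows and 14.7% of the rest, with 2.62% in B as the lowest value and 9.41% in E as the highest.

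Among the 15 pairs of windows, the interval of the density ratio excluded 1 in 7. Window B was below each of the other 5, from 1.70-fold against C (1.13 to 2.53) to 2.99-fold against F (2.11 to 4.25). Window C was below E by 1.73-fold (1.17 to 2.60) and below F by 1.76-fold (1.19 to 2.64). E and F differed by 1.01-fold (0.715 to 1.44). Windows A, C and D could not be ordered among themselves by their counts.

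**Figure D1:**
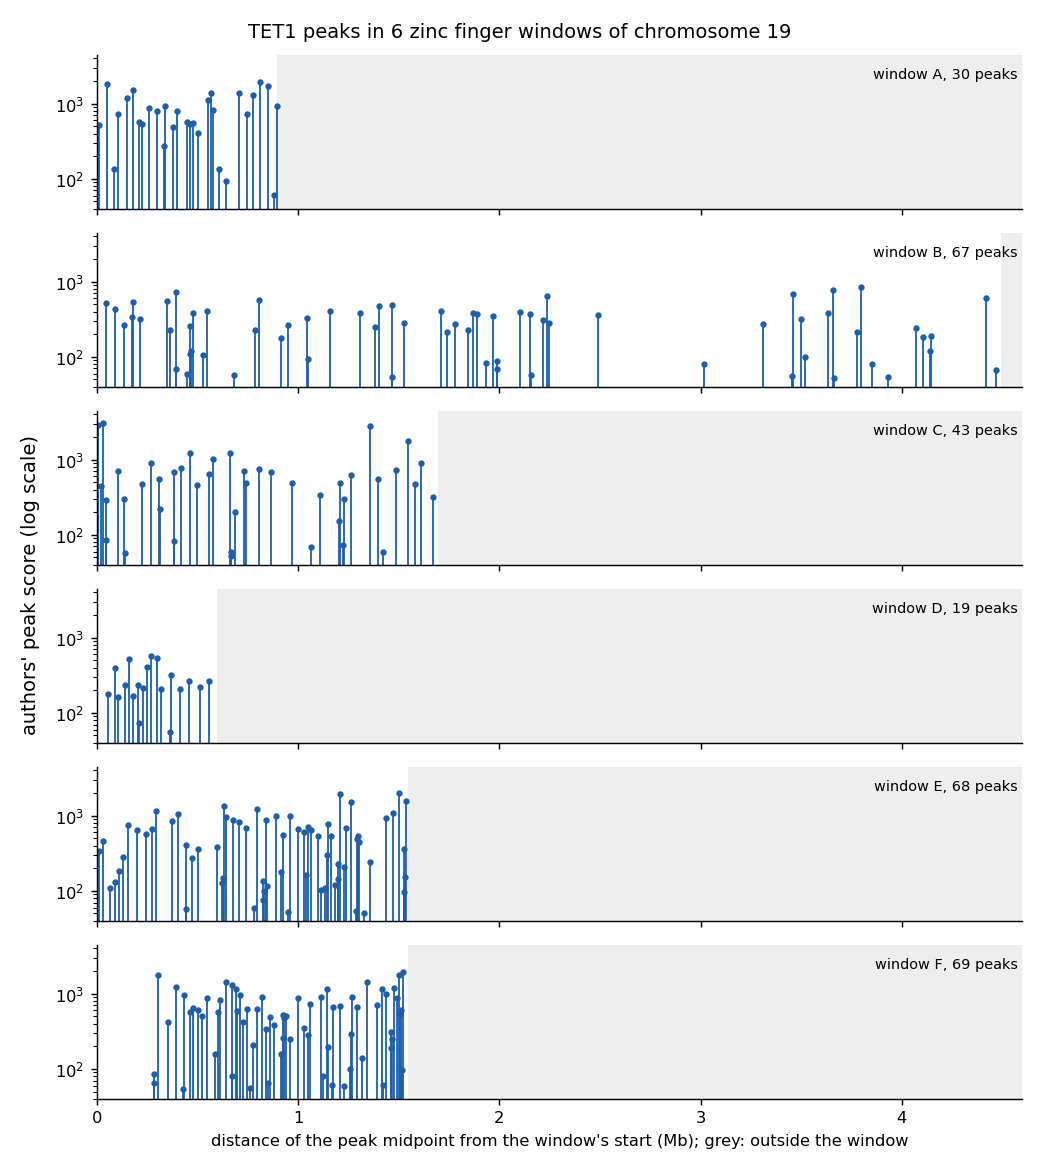
Position and score of each of the 296 peaks in the 6 windows, one panel per window. The x axis is the distance of the midpoint from the window's start in Mb and the y axis the authors' peak score on a log scale. Peaks stand one by one over most of A and D, window B has an empty stretch of 525 kb, and no peak of B or D reaches a score of 1000.

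Most windows were filled along their length. Of the 100 kb bins, 0 of 9 were empty in A, 0 of 17 in C, 0 of 6 in D and 0 of 15 in E, while 13 of 45 were empty in B and 2 of 15 in F. The median bin held 3 peaks in the windows and 6 in the rest, where 55 of 440 bins were empty. The fullest bins were 58800001 to 58900000 in F with 9 peaks, 53600001 to 53700000 in E with 8, and 53500001 to 53600000 in E and 58300001 to 58400000 in F with 7 each. The fullest bin of the rest held 26.

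The longest stretch without a peak lay in window B, from 22291452 to 22816530 (525 kb). In 0.5 Mb parts from its start, window B held 15, 7, 8, 11, 7, 0, 5, 8 and 6 peaks, so the count was highest at the end away from the centromere. The longest peak-free stretch of window F, 283 kb, was its first part from 57400001 to 57682758, and the peaks began after it. In C the longest was 103.2 kb (37465267 to 37568481) and in E 93.1 kb (52902183 to 52995259). In A it was 59.7 kb (12343735 to 12403459) and in D 55.1 kb (44350001 to 44405116).

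Density was higher just outside most window ends. Of 11 flanks of up to 500 kb outside the windows, 8 were denser than their window with an interval wholly above it. The flanks of A had 78 and 100 peaks per Mb, those of C 88 and 70, those of D 54 and 70, and the flank before B 72. After F, the last 0.168 Mb up to the last peak of the chromosome had 107 (63.4 to 169). The other 3 flanks were sparser than their window: 30.0 before E (16.8 to 49.5), 28.0 after E (15.3 to 47.0) and 16.0 before F (6.91 to 31.5). The peaks nearest to the 12 window ends lay 4.38 to 283 kb inside (median width 2028 bp, median score 428) and 1.56 to 3985 kb outside (1313 bp, 162), the last of these across the centromere.

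The scores of window peaks were gathered in the middle of the range. The authors gave every peak a score, 50 or higher, and values of 3100 or more are treated as 1 class called the ceiling. The median was 406 in the windows (quartiles 180 and 704) and 200 in the rest (89.1 and 697). Medians of the single flanks ran from 104 before E to 588 after F. Peaks from 300 to 1000 made up 47.6% of the windows (Wilson interval 42.0% to 53.3%) and 22.8% of the rest (21.3% to 24.4%). Weak peaks with scores under 100 made up 15.9% (12.2% to 20.5%), against 29.6% in the rest and 32.9% in the whole list.

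The ceiling was nearly empty. Only 1 of the 296 peaks stood there, 0.338% (0.0597% to 1.89%), against 142 or 4.97% (4.23% to 5.83%) in the rest and 4.69% in the whole list. That peak lay at chr19:36629712-36632696 in window C, close to the window's start, and with 100 kb removed from each end of the windows none was left. In the other 5 windows the upper Wilson limits of a count of 0 ran from 5.27% in F to 16.8% in D. In the 500 kb flanks 11 of 321 peaks, 3.43%, were at the ceiling. Of 39 bins of 1 Mb in the rest that hold no window, 6 had no ceiling peak, among them that from 49 to 50 Mb with 106 peaks. The median share of the 39 bins was 4.55% and the highest 12.3%.

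The density ratio therefore depended on the score. Per Mb, the windows had 4.35 peaks scoring 50 to 100 and the rest 19.1, a ratio of 0.228 (0.166 to 0.306). From 100 to 300 the values were 6.67 and 18.8 (ratio 0.354, 0.275 to 0.451). From 300 to 1000 they were 13.1 and 14.7, and the interval of this ratio, 0.887 (0.734 to 1.07), included 1. From 1000 to the ceiling they were 3.24 and 8.72 (0.372, 0.255 to 0.526). At the ceiling they were 0.0926 and 3.21 (0.0289, 0.000726 to 0.163). Taken as 1 set, the windows thus had fewer weak and fewer very strong peaks per Mb than the rest. The peaks from 1000 to the ceiling were unevenly spread, with 9 in A, 6 in C, 9 in E and 11 in F. Windows B and D had 0, and B makes up 4.5 of the 10.8 Mb. The ratio of this class was not formed for single windows or without B, so a deficit in each window is not shown.

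The class from 300 to 1000 was not alike across the windows. Per Mb, B had 6.67 such peaks (4.50 to 9.52), a ratio to the rest of 0.453 (0.303 to 0.653), and F had 22.6 (15.7 to 31.4), a ratio of 1.53 (1.06 to 2.15). The intervals of the ratio included 1 in D (0.679), C (0.919), A (1.21) and E (1.36). Without window B the other 5 windows together had 17.6 per Mb (14.5 to 21.2), a ratio of 1.20 (0.969 to 1.47), so the value of the pool depends on B.

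**Figure D2:**
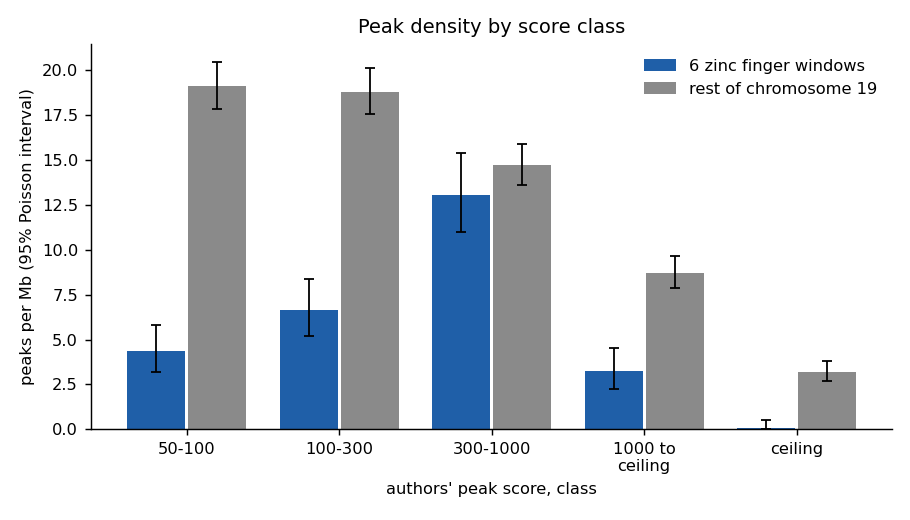
Peaks per Mb by score class in the 6 windows together and in the rest of chromosome 19, with 95% Poisson intervals as bars. The intervals overlap only from 300 to 1000, where the windows have 13.1 and the rest 14.7 peaks per Mb.

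The windows differed in score among themselves. Window A had the highest median, 765 (quartiles 531 and 1166), and only 2 of its 30 peaks scored under 100. F, C and E followed with 537, 497 and 455. Windows B and D were lowest, with medians of 272 and 236, and none of their 67 and 19 peaks reached 1000, whereas 9 of 30 did in A, 7 of 43 in C, 9 of 68 in E and 11 of 69 in F. Density and score did not follow the same order: window D had 31.7 peaks per Mb with a median score of 236, and A had 33.3 with a median of 765.

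Several of the highest scores lay close to a window's end. The highest of A was 1960 at chr19:12510299-12512824, in E 1987 at chr19:53896941-53900427 and in F 1938 at chr19:58918546-58921118. The highest of B was 855 at chr19:23597644-23599369 and of D 568 at chr19:44616001-44618552, which was also the widest peak of D (2552 bp).

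Peak widths spanned a narrow range. The median was 1887 bp in the windows (95% interval 1807 to 1990, quartiles 1450 and 2381) and 1708 bp in the rest (1654 to 1765, quartiles 1142 and 2789). The upper quartile was 1.64 times the lower in the windows and 2.44 times in the rest. The order of the medians turned when weak peaks were left out: among peaks scoring 100 or more the windows had 2014 bp and the rest 2238 bp. After merging peaks up to 1 kb apart they had 1985 and 2002 bp, and the interval of their ratio, 0.939 to 1.05, included 1. Only 1 window peak was 5 kb or wider, 0.338%, against 186 or 6.51% in the rest and 3.2% in the whole list.

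In the 2 score classes from 300 up to the ceiling, window peaks had the lower median width. Scores were not matched within a class, so widths at equal score were not compared. From 1000 to the ceiling the median was 2602 bp in the windows (2314 to 2833) and 3669 bp in the rest (3523 to 3834), a ratio of 0.709. From 300 to 1000 it was 2093 bp (1985 to 2206) against 2450 bp (2397 to 2560). From 100 to 300 the medians were 1611 bp (1455 to 1796) and 1508 bp (1483 to 1534), and from 50 to 100 they were 1028 bp (884 to 1148) and 1005 bp (988 to 1019), with overlapping intervals in both classes. Width and score both come from the peak call, and their Spearman's rho across peaks, which are not independent replicates, was 0.734 in the windows and 0.895 in the rest.

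**Figure D3:**
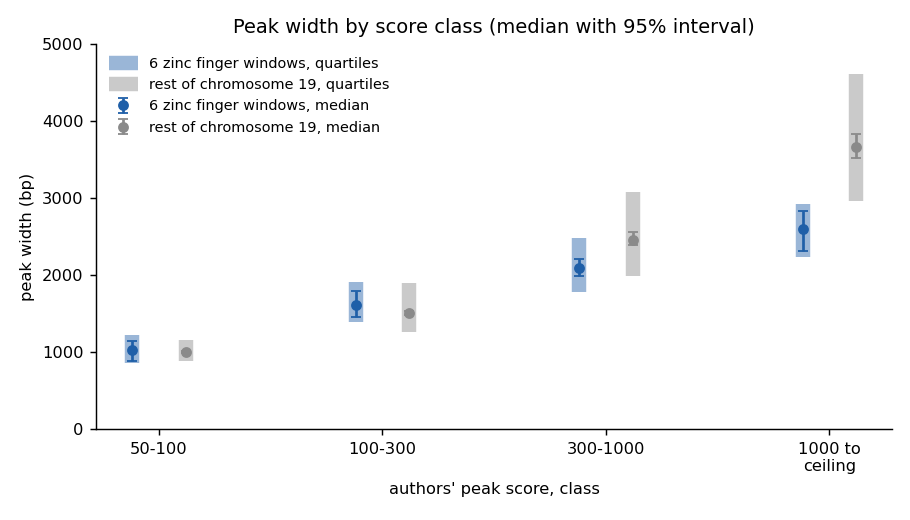
Peak width in bp by score class, with quartiles as thick bars and the median with its 95% interval as points. The medians lie together below a score of 300 and apart above it, at 2602 bp in the windows and 3669 bp in the rest from 1000 to the ceiling.

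By window, A had the widest peaks (median 2237 bp, 2021 to 2739) and D the narrowest (1551 bp, 1411 to 1807). E had 2144 bp, F 1906, C 1872 and B 1652. The 5 widest peaks of all windows were chr19:53444563-53450429 in E (5867 bp, score 716), chr19:36603142-36607516 in C (4375 bp, 2917), chr19:12033428-12037634 in A (4207 bp, 942), chr19:37957078-37961270 in C (4193 bp, 2829) and chr19:58339703-58343781 in F (4079 bp, 507). The widest of B was chr19:20188353-20192105 (3753 bp, 723). The widest peak of the rest, at 17344 bp, was several times longer than any of these.

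Window peaks stood alone far more often than other peaks of the chromosome. Another midpoint lay within 10 kb for 110 of 296 window peaks, 37.2% (31.9% to 42.8%), against 81.8% (80.4% to 83.2%) in the rest and 56.7% over all human chromosomes. The median distance to the nearest midpoint was 16.1 kb in the windows and 4.66 kb in the rest. By window it was 21.9 kb in A, 20.2 in B, 20.3 in C, 18.5 in D, 13.4 in E and 10.6 in F. The share with a near neighbour was lowest in A, 13.3% (5.31% to 29.7%), and highest in E, 48.5% (37.1% to 60.2%), and F, 47.8% (36.5% to 59.4%). Low shares also occurred outside the windows. The flank before F had 0% of 8 peaks and that after E 28.6% of 14, while the remaining flanks ran from 53.3% to 91.4%. The 1 Mb bins from 29 to 30 Mb and from 32 to 33 Mb had 25% of 8 peaks and 0% of 4.

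A lower share of near neighbours goes with a lower density by arithmetic, so bins of like density were set beside the windows. Of 39 bins of 1 Mb in the rest that hold no window, 6 had a density between those of B and F. Their share with a near neighbour ran from 33.3% to 70.5%, and pooled over their 192 peaks it was 59.4% (52.3% to 66.1%), above the windows' 37.2%. At the ceiling these bins had 4.17% of their peaks (2.13% to 8.01%) and under a score of 100 they had 28.6% (22.7% to 35.4%), both above the windows' shares. The match in density is loose: the bins had a median of 30 peaks, and the windows' shares include B, which has no bin of like density. Without B the windows' share with a near neighbour was 38.9% (32.8% to 45.3%), with 0.437% at the ceiling and 13.5% under 100. The comparison with the bins was chosen after the densities had been seen.

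**Figure D4:**
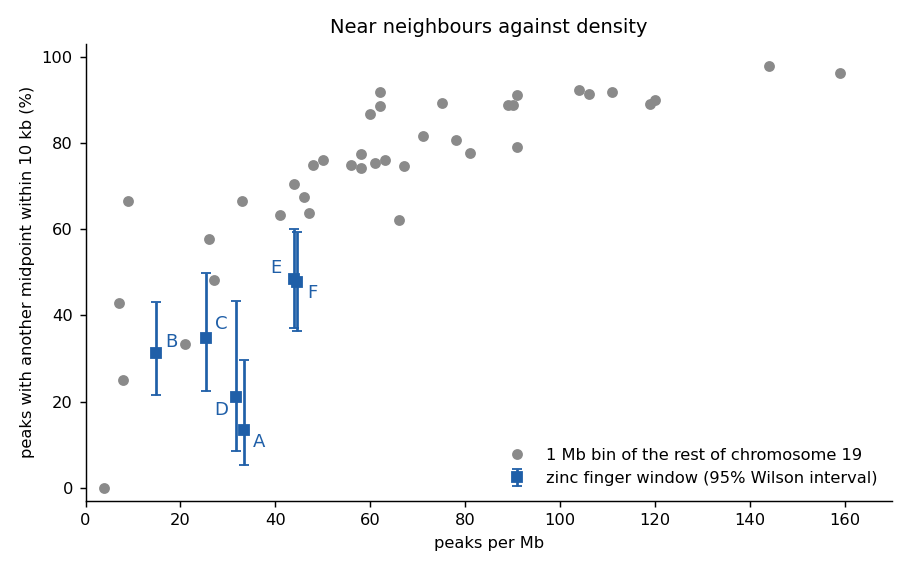
Share of peaks with another midpoint within 10 kb (y axis, percent) against peaks per Mb (x axis), for the 6 windows with 95% Wilson intervals and for 39 bins of 1 Mb in the rest of chromosome 19. Windows A, D, E and F lie below the bins of about their density, A at 13.3% and D at 21.1%. C, at 34.9%, lies below the bins of 26 and 27 peaks (57.7% and 48.1%) and near that of 21 (33.3%). B, at 14.9 peaks per Mb, has no bin of like density, since the nearest bins hold 9 and 21 peaks.

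Close strings of peaks were rare. When midpoints up to 10 kb apart were joined, 186 window peaks (62.8%, 57.2% to 68.1%) were single, against 18.2% of the rest. Strings of 5 or more held 11 window peaks (3.72%, 2.09% to 6.53%) and 46.0% of the rest (44.2% to 47.8%), and the longest had 6 peaks in the windows and 46 in the rest. The string of 6 lay in F from 58890791 to 58921118, near the end of the window, and that of 5 in E from 53223362 to 53246719. Neighbouring peaks separated by 1 kb or less made up 17 of 290 neighbour pairs within windows (5.86%) and 551 of 2852 in the rest (19.3%).

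The spacing of peaks varied less in most windows than in most bins of the rest. The coefficient of variation of the distance between successive midpoints was 0.434 in A, 0.516 in D, 0.706 in F, 0.765 in C and 0.804 in E. In window B, which contains the 525 kb stretch, it was 1.28. The 39 bins of the rest had a median of 1.27 and ranged from 0.554 to 2.48. The windows differ from the bins in length, and no test was made of this difference.

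Among peaks scoring 300 or more, near neighbours of the same class were also fewer in the windows than in the rest. With only peaks scoring 300 or more counted, the windows had 16.4 per Mb (14.06 to 18.99) and the rest 26.7 (25.2 to 28.2). Another such peak lay within 10 kb for 20 of 177 in the windows, 11.3% (7.43% to 16.8%), and for 47.5% (44.6% to 50.3%) in the rest. Their median distance was 28.6 kb in the windows and 10.7 kb in the rest. Counting neighbours of any score, 63.8% (49.5% to 76.0%) of the window peaks under 100 had one within 10 kb and 27.0% (20.3% to 34.8%) of those from 300 to 1000, against 84.99% and 81.0% in the rest.

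Peaks outnumbered the zinc finger genes in each window. Together the windows had 1.62 peaks per zinc finger symbol of the runs (Poisson interval 1.44 to 1.81). It was 1.5 in A (1.01 to 2.14), 1.86 in B (1.44 to 2.36), 1.48 in C (1.07 to 2.00), 1.06 in D (0.636 to 1.65), 2.00 in E (1.55 to 2.54) and 1.5 in F (1.17 to 1.90), so that the interval included 1 in D and lay above it in the other 5. Window B, the sparsest by length, was thus not the sparsest by gene, and D had the lowest value. The 6 single intervals overlap, those of D and E only narrowly. Ratios between windows were not formed per gene, so this overlap does not show that the windows are alike by gene. Per protein-coding symbol of any kind the windows had 1.45 peaks (1.29 to 1.63), and the rest of the chromosome had 2.29 (2.21 to 2.38) per symbol outside the runs. The runs of E and F held 43 and 55 protein-coding symbols for 34 and 46 zinc finger symbols. The order of the windows by gene therefore depends on which symbols are counted.

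Peaks scoring 300 or more numbered 177 for the 183 zinc finger symbols, 0.967 per gene (0.830 to 1.12). There were 46 such peaks for 46 genes in F, 30 for 29 in C, 40 for 34 in E, 25 for 20 in A and 30 for 36 in B. Window D had 6 for 18 genes, 0.333 (0.122 to 0.726), with an interval below 1. Equal numbers do not show that each gene has a peak, since peaks were not placed on genes, and the ends of windows and runs need not coincide. All such peaks of the windows were counted, but only the zinc finger symbols. The runs held 204 protein-coding symbols, among them 43 in E and 55 in F, so a value near 1 depends on this choice. It also depends on the cut of 300. For the same 183 symbols, the windows held 249 peaks scoring 100 or more and 35 from 1000 to the ceiling. The median score of D, 236, lies below the cut.

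**Figure D5:**
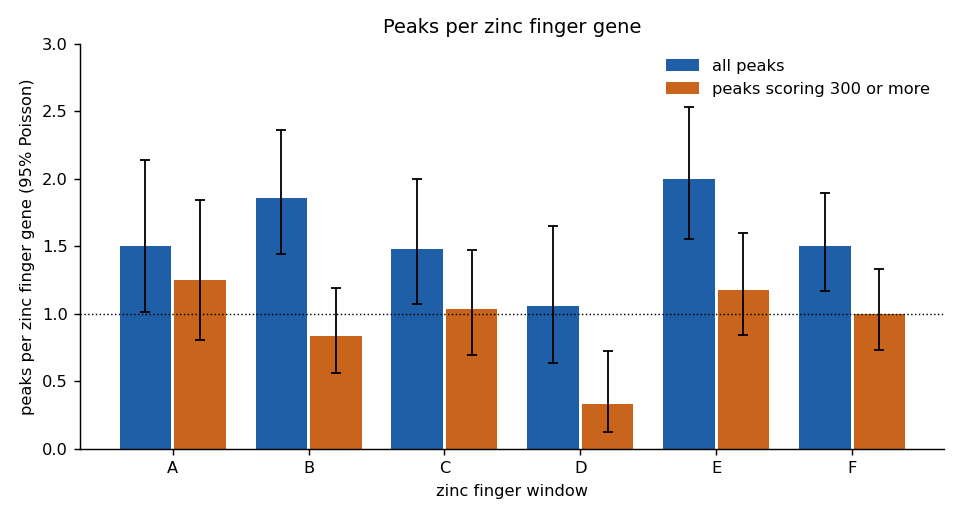
Peaks per zinc finger gene in each window, for all peaks and for those scoring 300 or more, with 95% Poisson intervals. Genes were counted by order in a GRCh38.p14 table, zinc finger symbols only, while peaks were not limited to such genes. All peaks give 1.06 to 2.00 per gene. At the cut of 300, strong peaks lie near the dotted line at 1 except in D, at 0.333, whose median score of 236 is below the cut. Another cut would give other values.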

How the data were processed

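The data are 1 peak list from 1 ChIP and 1 input library. Reads were aligned with BWA 0.7.17 to hg19, per the submitters' processing notes, and peaks were called with MACS, per the peak names in the deposited file, for which neither version nor settings are given in the sources used here. Per the values in the file, the authors' score has a minimum of 50, and no header states its unit. Positions are hg19 and counted from 1.

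Python 3.11.15, pandas 2.3.3, numpy 2.4.6, scipy 1.17.1 and matplotlib 3.10.9 were used. The rest of chromosome 19 runs from its first to its last peak without the windows and without peak-free intervals over 1 Mb. Shares carry 95% Wilson intervals, counts exact Poisson intervals, ratios exact binomial intervals and medians order-statistic intervals. No p-value is given, since there is 1 library per group. The computation of the density and width ratios was tested on simulated peaks, placed independently of each other and with widths unrelated to score. This does not show how the intervals behave for clustered peaks. The table's assembly differs from that of the peaks: 40 peaks of chromosome 19 lie past its last gene. Windows, gene runs and named regions were chosen with earlier results of these data known. Named are each window's widest peak, highest-scoring peak and longest peak-free stretch, the 5 widest peaks and the fullest 100 kb bins. The strings of peaks were chosen after their values were seen. Stricter scores, merging, other window ends and other distances were tried as alternatives.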

Additional observations from a re-analysis of the deposited data

How the results depend on the processing

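Of 51 alternative values for 7 results, 37 stayed within the interval of the value as deposited, 10 moved and 4 crossed a ratio of 1. The direction of the density ratio of all peaks held in each. It was 0.507 for scores of 100 or more, 0.496 after merging up to 1 kb, 0.485 without the first 5 Mb in the rest and 0.563 without window B. The width ratio, 1.10 as deposited, turned to 0.8999 for scores of 100 or more (0.855 to 0.956) and 0.660 for the top 25% by score (0.609 to 0.707), and was 0.992 after merging, where the interval of 0.939 to 1.05 includes 1. The density ratio from 300 to 1000, 0.887, was 1.20 (0.969 to 1.47) without window B, and both intervals include 1; this alternative was added after the data were seen. The share of window peaks with a near neighbour, 37.2%, became 23.7% for scores of 100 or more, 6.98% in the top 25%, 29.4% after merging, 26.0% within 5 kb and 58.8% within 20 kb. The share at the ceiling was 0 with windows shortened by 100 kb at each end. Window D held no peak of the top 25%, so no fold between windows was formed there. Leaving out windows A, C, D, E and F in turn was added after the data were seen. No paired analysis was possible because there was only 1 ChIP and 1 input library. The read depth is unknown, and how well reads map to the repeated zinc finger sequences was not tested.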

Other observations

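Other stretches of chromosome 19 were sparser than the average of any of the 6 windows. The 1 Mb bins from 29 to 30 Mb, 31 to 32 Mb, 32 to 33 Mb and 43 to 44 Mb held 8, 9, 4 and 7 peaks. The average of window B was 14.9 per Mb over its 4.5 Mb. Parts of B were sparse too, with 0 peaks from 22.3 to 22.8 Mb and 5 from 22.8 to 23.3 Mb. Of the 7 peaks from 43 to 44 Mb, 71.4% scored under 100, and their median score was 75.3, the lowest of the 39 bins. The bin from 34 to 35 Mb held 21 peaks with a median score of 698, the highest of the 39 bins, and 33.3% of them had another midpoint within 10 kb. Genes of these bins were not analysed here.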
